A study of Mus musculus with 203 samples.

Results

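The transcription factor NRF2 and 9 genes of its antioxidant programme were followed in RNA-seq of RAW264.7 cells. The genes were Nfe2l2, which encodes NRF2, Keap1, Hmox1, Nqo1, Gclc, Gclm, Slc7a11, Txnrd1, Srxn1 and Prdx1, chosen by symbol. All 10 were among the 25094 genes listed for RAW cells, and all 10 passed the filter on low values, which kept 12905 genes that reached a value of 1 in 4 or more libraries. RAW264.7 is a macrophage-like mouse line, here used as stable lines made with lentivirus and puromycin selection, carrying either shGFP, the control hairpin, or shKDM1A, a hairpin against Kdm1a. Cells of each line were left without IL4 or exposed to IL4 at 20 ng/ml for 6 h, and each of these 4 groups had 4 libraries. Each line carries 1 hairpin, so loss of Kdm1a and other effects of that hairpin cannot be told apart, and all 16 libraries come from cells that went through transduction and selection. The libraries of a group come from the same stable line, so p-values measure the spread between cultures or libraries of that line.

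NRF2 is a transcription factor of the cap'n'collar family that is made continuously and, in resting cells, is handed by KEAP1 to a ubiquitin ligase and degraded. Electrophiles and oxidants modify KEAP1, NRF2 then accumulates, pairs with small MAF proteins and binds antioxidant response elements near genes of glutathione synthesis, thioredoxin reduction, heme breakdown and quinone reduction. BACH1 competes for the same elements, above all at Hmox1. In macrophages this programme limits oxidative damage and handles the iron and heme of engulfed red cells. NRF2 activity is set mainly by protein stability, which RNA-seq does not measure. KDM1A, also called LSD1, removes methyl groups from histone lysines.

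The core of the antioxidant response element, TGACNNNGC read on either strand, was searched in RefSeq promoter windows of GRCm38.p6, which run from 250 bases before to 50 bases after each start. It was found in 12.4% of all 32851 windows. Of the 10 genes, 8 had a window and 5 of these held the core, namely Nfe2l2, Srxn1, Gclm, Prdx1 and, at 1 of its 3 windows, Txnrd1. Counted by window, as for the 12.4%, 5 of the 10 windows of these genes held it. Keap1, Slc7a11 and Nqo1 had windows without it, and Hmox1 and Gclc had no entry. The 5 matches are shown because they are the stretches of these promoters with the core letters of the element NRF2 binds. Each is read 5′ to 3′ on the strand that reads TGACNNNGC, with those letters in capitals and up to 26 bases on each side.
Nfe2l2, chr2:75704869-75704913, minus strand: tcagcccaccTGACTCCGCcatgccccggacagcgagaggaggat
Gclm, chr3:122245397-122245457, minus strand: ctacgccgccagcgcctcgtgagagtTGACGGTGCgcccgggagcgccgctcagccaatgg
Prdx1, chr4:116685440-116685500, minus strand: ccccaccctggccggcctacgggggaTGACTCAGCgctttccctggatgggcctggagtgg
Txnrd1, chr10:82859088-82859148, minus strand: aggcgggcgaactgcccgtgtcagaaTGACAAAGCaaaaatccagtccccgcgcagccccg
Srxn1, chr2:152105526-152105573, minus strand: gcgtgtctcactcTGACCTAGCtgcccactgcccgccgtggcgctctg
The Prdx1 match reads TGACTCAGC, which also contains TGACTCA, the site of AP-1 factors. These 9 letters were found in 0.454% of all windows. The Gclm window is shown whole, since Gclm was higher in each of the 4 comparisons below that it entered as a pair of groups. It is read on the gene's strand, where the element appears as its reverse complement in capitals.
Gclm, chr3:122245307-122245606, plus strand: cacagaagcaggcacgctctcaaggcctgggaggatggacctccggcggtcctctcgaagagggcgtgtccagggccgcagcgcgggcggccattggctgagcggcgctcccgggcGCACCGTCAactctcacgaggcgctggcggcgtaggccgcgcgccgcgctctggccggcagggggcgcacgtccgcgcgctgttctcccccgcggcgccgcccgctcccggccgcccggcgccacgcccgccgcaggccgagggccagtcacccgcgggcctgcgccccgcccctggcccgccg
A match is only a match of letters, and the absence of one says nothing of elements outside these windows.

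The 16 libraries held 17554721 to 27782568 tags each. Values are moderated log2 values as the authors deposited them, called log2 values below. Within groups, libraries differed by a median of 0.036 to 0.056 per gene, and no pair was identical. In shKDM1A cells with IL4, replicates 1 and 3 differed by a median of 0.044 and replicates 2 and 4 by 0.039, while libraries of different pairs differed by 0.054 to 0.056. Kdm1a averaged 11.18 ± 0.04 (SD, n = 4) in shGFP and 10.30 ± 0.05 in shKDM1A cells without IL4, and 11.10 ± 0.03 and 10.32 ± 0.03 with IL4. Its log2 difference was -0.88 without IL4 and -0.79 with IL4 (SE 0.028 for each), or 0.542 and 0.580 times the shGFP level. Of 9 macrophage markers 8 passed the filter, all except Mertk, and all markers of T cells, B cells and fibroblasts failed it. Of 4 dendritic cell markers Zbtb46 and Xcr1 passed, at log2 values of at most 4.22, and of 4 neutrophil markers S100a8, at most 1.26. In the knockdown comparisons 1 of these was called, Xcr1 with IL4, at -0.043 (adjusted p = 0.0414 by limma). The 8 macrophage markers were called in each knockdown comparison (adjusted p under 0.05 by limma), against 38.2% and 40.7% of all genes tested. They moved in both directions, with Itgam at 0.41 and Fcgr1 at -0.45 without IL4, and Lyz2 at 0.68 and Adgre1 at -0.44 with IL4. Of 5 osteoclast markers 4 passed, without Calcr, and 2 of the 4 were called in each knockdown comparison. Ctsk was higher by 0.44 without IL4 and 0.46 with IL4, and Mmp9 by 0.086 and 0.068. Acp5 had differences of 0.058 and -0.047 and Oscar of -0.021 and -7.7e-05, none of them called. The summed linear level of the osteoclast markers was 183 to 191 in shGFP and 207 to 217 in shKDM1A libraries without IL4, and 213 to 220 and 223 to 236 with IL4. That of the macrophage markers was 203142 to 210223 in shGFP and 233132 to 238315 in shKDM1A libraries without IL4, and 162079 to 164646 and 218305 to 233740 with IL4. Lyz2 made up 51.6% to 62.3% of that sum. Without it the sum was 83362 to 84991 in shGFP and 89174 to 90628 in shKDM1A libraries without IL4, and 78432 to 79179 and 90585 to 94114 with IL4. What part this had in the values below was not tested. In bulk RNA, more cells expressing a gene and more RNA per cell cannot be told apart.

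Per kilobase of annotated transcript, Prdx1 stood highest of the 10 genes in shGFP cells without IL4, at a log2 value per kb of 13.62 ± 0.02 (SD, n = 4), above 99.1% of the genes tested. Txnrd1 followed at 11.42 ± 0.02, then Hmox1 at 10.69 ± 0.03, Nfe2l2 at 10.58 ± 0.02 and Gclm at 10.09 ± 0.01. Lower still were Gclc at 9.53 ± 0.04, Keap1 at 9.20 ± 0.02 and Srxn1 at 9.10 ± 0.05. These 8 genes lay above at least 74.6% of the genes tested. The entry for Gclc is a transcript of 3614 bases labelled as non-coding, and its level per kb rests on that length. Slc7a11, at 5.62 ± 0.05 over a transcript of 9213 bases, was above 26.1%, and Nqo1, at 1.97 ± 0.01, above 8.15%. In this group no neighbours in the order overlapped between libraries. In shKDM1A cells Hmox1 passed Txnrd1, at 11.62 ± 0.02 against 11.49 ± 0.01 per kb without IL4. Gclm and Nfe2l2 overlapped there, at 10.39 ± 0.07 and 10.34 ± 0.01 per kb, and with IL4 Gclc and Nfe2l2 overlapped, at 10.18 ± 0.05 and 10.16 ± 0.02.

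**Figure D1:**
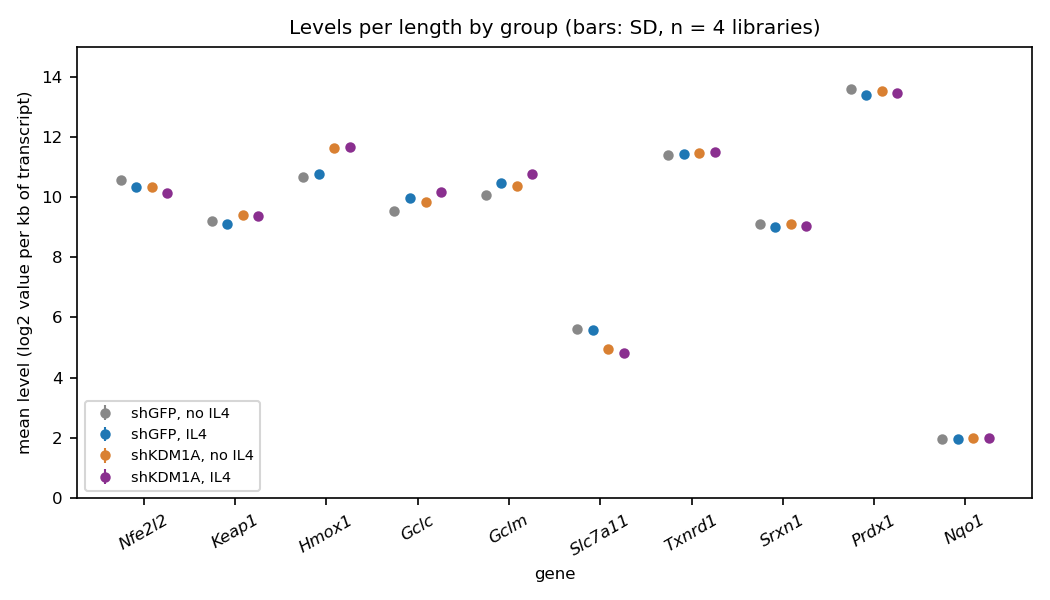
Mean log2 value per kb of transcript for the 10 genes (y axis, 0 to 15) in the 4 groups of RAW cells, with bars for the SD over 4 libraries, most of them shorter than the points. Prdx1 stands highest and Nqo1 lowest in every group, and Hmox1 lies above Txnrd1 in the shKDM1A groups only.

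In the comparison of shKDM1A with shGFP cells, the question was how these genes differ when KDM1A is reduced. Hmox1, Gclc, Gclm and Keap1 were higher and Slc7a11 and Nfe2l2 lower, whether or not IL4 was given. The largest differences were those of Hmox1, at 1.92 times the shGFP level without IL4, and of Slc7a11, at 0.634 times. Without IL4, 8 of the 10 genes passed an adjusted p of 0.05 (limma, adjusted over all genes tested by the Benjamini-Hochberg method), against 38.2% of all genes. Of these 5 were higher and 3 lower, against 19.7% and 18.4% of all genes. With IL4, 8 of 10 were called, against 40.7%, with 6 higher and 2 lower, against 20.9% and 19.8%. The libraries of the groups did not overlap for 8 of the 10 genes without IL4 and for 7 with IL4, against 37.4% and 36.4% of all genes. These shares over all genes are not matched for level, and 8 of the 10 genes lie high in the distribution of levels. The comparisons with and without IL4 share no libraries.

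IL4 is the cytokine that drives alternative activation of macrophages, and its comparison asked how these genes responded to it within each line. In shGFP cells, IL4 was accompanied by higher Gclc, Gclm and Hmox1 and by lower Nfe2l2, Prdx1, Srxn1 and Keap1. That made 7 of 10 genes called, against 26.9% of all genes tested, with 3 higher and 4 lower, against 13.1% and 13.7%. In shKDM1A cells 6 of 10 were called, against 27.1%. Gclm, Gclc and Hmox1 were higher and Nfe2l2, Slc7a11 and Prdx1 lower, 3 in each direction, against 13.6% and 13.5%. Groups did not overlap for 7 and 5 of the 10 genes, against 28.3% and 25.7% of all genes. Each IL4 comparison shares a group with each knockdown comparison, so the values of the 4 are given side by side below.

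**Figure D2:**
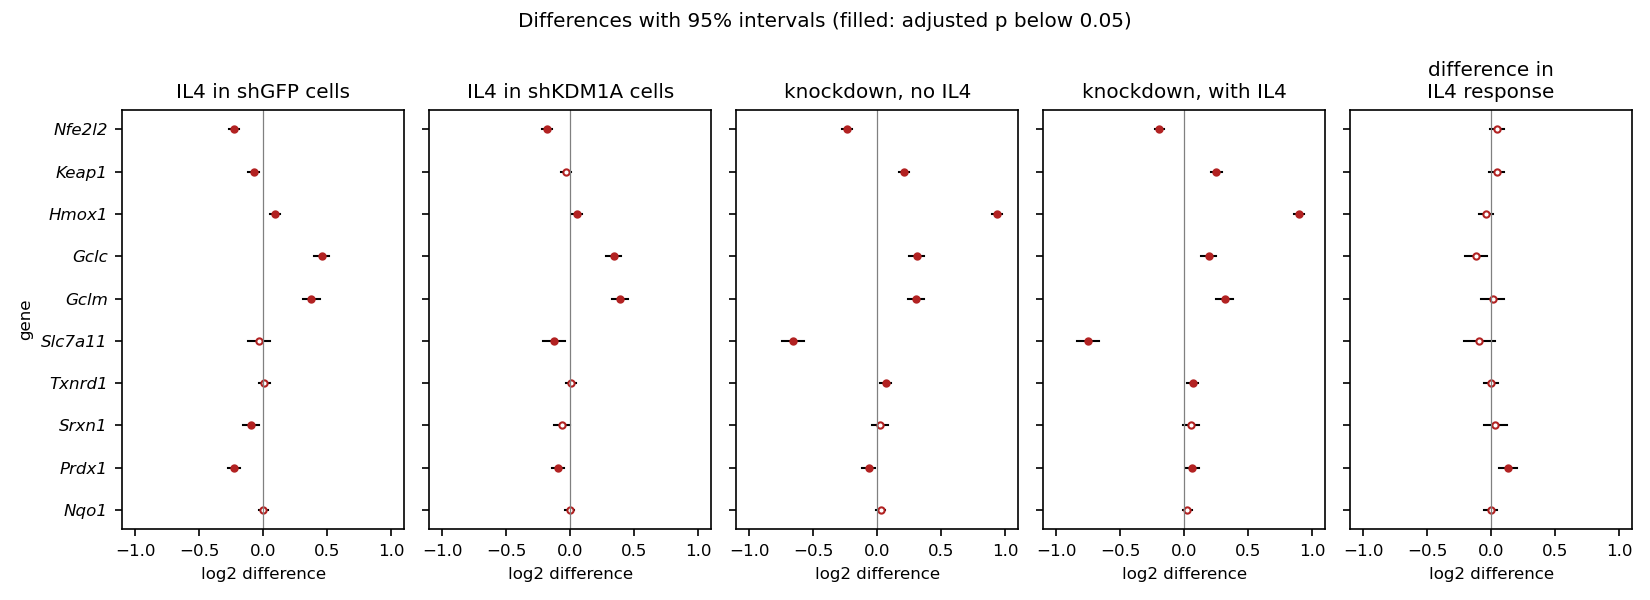
Log2 differences (x axis) of the 10 genes (y axis) in the 4 comparisons of groups and in the difference between the IL4 responses of the lines, with 95% intervals. Filled points passed an adjusted p of 0.05. Hmox1 and Slc7a11 lie beyond 0.5 in the knockdown panels, and no gene does in the IL4 panels.

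Among the regulators, Nfe2l2 and Keap1 moved in opposite directions under the knockdown. Nfe2l2, on chromosome 2 of mm9 from 75513570 to 75542720 on the minus strand, had log2 values of 11.87, 11.88, 11.92 and 11.91 in shGFP cells and 11.65, 11.66, 11.64 and 11.67 in shKDM1A cells without IL4. With IL4 the values were 11.65, 11.67, 11.66 and 11.69 in shGFP and 11.49, 11.45, 11.49 and 11.45 in shKDM1A cells. The untreated shGFP libraries were highest and the IL4-treated shKDM1A libraries lowest, with no overlap in any of the 4 comparisons. The knockdown difference was -0.24 without IL4 (SE 0.018, adjusted p = 2.23e-08 by limma) and -0.19 with IL4 (adjusted p = 3.03e-07). IL4 was accompanied by -0.23 in shGFP (adjusted p = 6.56e-08) and -0.18 in shKDM1A cells (adjusted p = 1.06e-06), so the transcript of NRF2 itself was 0.853 and 0.881 times its untreated level.

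Keap1 encodes the adaptor that marks NRF2 for degradation and lies on chromosome 9 of mm9 from 21034174 to 21043776 on the minus strand. Without IL4 its log2 values were 11.36, 11.35, 11.34 and 11.38 in shGFP and 11.59, 11.57, 11.56 and 11.55 in shKDM1A cells. With IL4 they were 11.27, 11.27, 11.29 and 11.31 in shGFP and 11.56, 11.50, 11.51 and 11.57 in shKDM1A cells. Every shKDM1A library was above every shGFP library. The knockdown difference was 0.21 without IL4 (SE 0.020, adjusted p = 2.96e-07 by limma) and 0.25 with IL4 (adjusted p = 3.09e-08). IL4 was accompanied by -0.076 in shGFP cells (adjusted p = 0.00862), while in shKDM1A cells the difference of -0.034 was not called (adjusted p = 0.239, 95% interval -0.076 to 0.0080). Exons of Keap1 overlap an antisense gene, Gm16754, in GENCODE M1, and the counting did not separate strands.

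Hmox1 encodes heme oxygenase 1, which opens heme to biliverdin and releases iron. It lies on chromosome 8 of mm9 from 77617517 to 77624492 on the plus strand and had the largest range of group means of the 10 genes, 0.99. Libraries without IL4 had Hmox1 log2 values of 11.31, 11.36, 11.31 and 11.36 in shGFP and 12.29, 12.27, 12.25 and 12.29 in shKDM1A cells. The IL4-treated libraries had 11.44, 11.44, 11.43 and 11.42 in shGFP and 12.35, 12.31, 12.32 and 12.34 in shKDM1A cells. The lines stand far apart and the IL4 groups lie just above their untreated groups, with no overlap. Against shGFP, shKDM1A cells differed by 0.94 without IL4 (SE 0.019, adjusted p = 2.16e-15 by limma), or 1.92-fold, and 0.90 with IL4 (adjusted p = 2.84e-15), or 1.86-fold. The IL4 difference was 0.095 in shGFP cells (adjusted p = 0.00106), or 1.07-fold. In shKDM1A cells it was 0.054 (adjusted p = 0.0383), near the threshold. Leaving out replicate 2 or 3 of the untreated or replicate 1 or 4 of the IL4-treated shKDM1A libraries gave 0.045 to 0.052 with adjusted p of 0.0770 to 0.119. Over 15 alternatives its adjusted p ran from 0.0213 to 0.182, and 6 passed, with quantile normalization giving 0.036 (adjusted p = 0.182).

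The pair of subunits of glutamate-cysteine ligase, the rate-limiting enzyme of glutathione synthesis, rose together. Gclc, the catalytic subunit, lies on chromosome 9 of mm9 from 77602342 to 77642296 on the plus strand. Untreated shGFP libraries had Gclc log2 values of 11.39, 11.40, 11.42 and 11.32 and untreated shKDM1A libraries 11.68, 11.67, 11.73 and 11.69. After IL4 the values were 11.81, 11.85, 11.84 and 11.85 in shGFP and 12.07, 12.05, 11.95 and 12.05 in shKDM1A cells. The groups form 4 steps, untreated shGFP lowest and IL4-treated shKDM1A highest, without overlap. IL4 was accompanied by 0.46 in shGFP cells (SE 0.028, adjusted p = 2.14e-09 by limma), or 1.37-fold, and 0.34 in shKDM1A cells (adjusted p = 1.02e-07), or 1.26-fold. Between the lines the difference was 0.31 without IL4 (adjusted p = 1.55e-07) and 0.19 with IL4 (adjusted p = 3.56e-05).

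Gclm, the modifier subunit, lies on chromosome 3 of mm9 from 121948475 to 121970133 on the plus strand, and an antisense gene, Gm17494, overlaps its exons. Its values on the log2 scale were 11.14, 11.12, 11.13 and 11.14 in shGFP and 11.50, 11.48, 11.33 and 11.43 in shKDM1A cells without IL4. With IL4 they were 11.52, 11.51, 11.51 and 11.50 in shGFP and 11.87, 11.84, 11.77 and 11.81 in shKDM1A cells. The untreated shGFP libraries were lowest, the IL4-treated shKDM1A libraries highest, and replicate 3 of untreated shKDM1A was the lowest of its group. IL4 was accompanied by 0.37 in shGFP (SE 0.030, adjusted p = 7.62e-08 by limma) and 0.39 in shKDM1A cells (adjusted p = 5.61e-08), or 1.30-fold and 1.31-fold. In shKDM1A against shGFP cells the difference was 0.30 without IL4 (adjusted p = 5.91e-07) and 0.31 with IL4 (adjusted p = 3.78e-07).

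Slc7a11, the light chain of the cystine-glutamate exchanger that brings in cystine for glutathione, went the other way from the ligase. It lies on chromosome 3 of mm9 from 50168858 to 50247535 on the minus strand. On the log2 scale it read 8.82, 8.76, 8.87 and 8.83 in shGFP and 8.20, 8.13, 8.24 and 8.07 in shKDM1A cells without IL4. With IL4 it read 8.73, 8.84, 8.79 and 8.78 in shGFP and 8.00, 8.14, 8.02 and 7.97 in shKDM1A cells. Every shKDM1A library was below every shGFP library. The knockdown difference was -0.66 without IL4 (SE 0.041, adjusted p = 1.56e-09 by limma) and -0.75 with IL4 (adjusted p = 3.24e-10), or 0.634 and 0.595 times the shGFP level. In shGFP cells the IL4 difference of -0.036 was not called (adjusted p = 0.591, 95% interval -0.12 to 0.050). In shKDM1A cells it was -0.13 (adjusted p = 0.0264), with overlapping groups. Without replicate 1 or 3 of the untreated or replicate 1, 3 or 4 of the IL4-treated shKDM1A libraries it was -0.12 to -0.10 with adjusted p of 0.0598 to 0.0907. Over 15 alternatives its adjusted p ran from 0.00424 to 0.0907, and 7 passed.

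**Figure D3:**
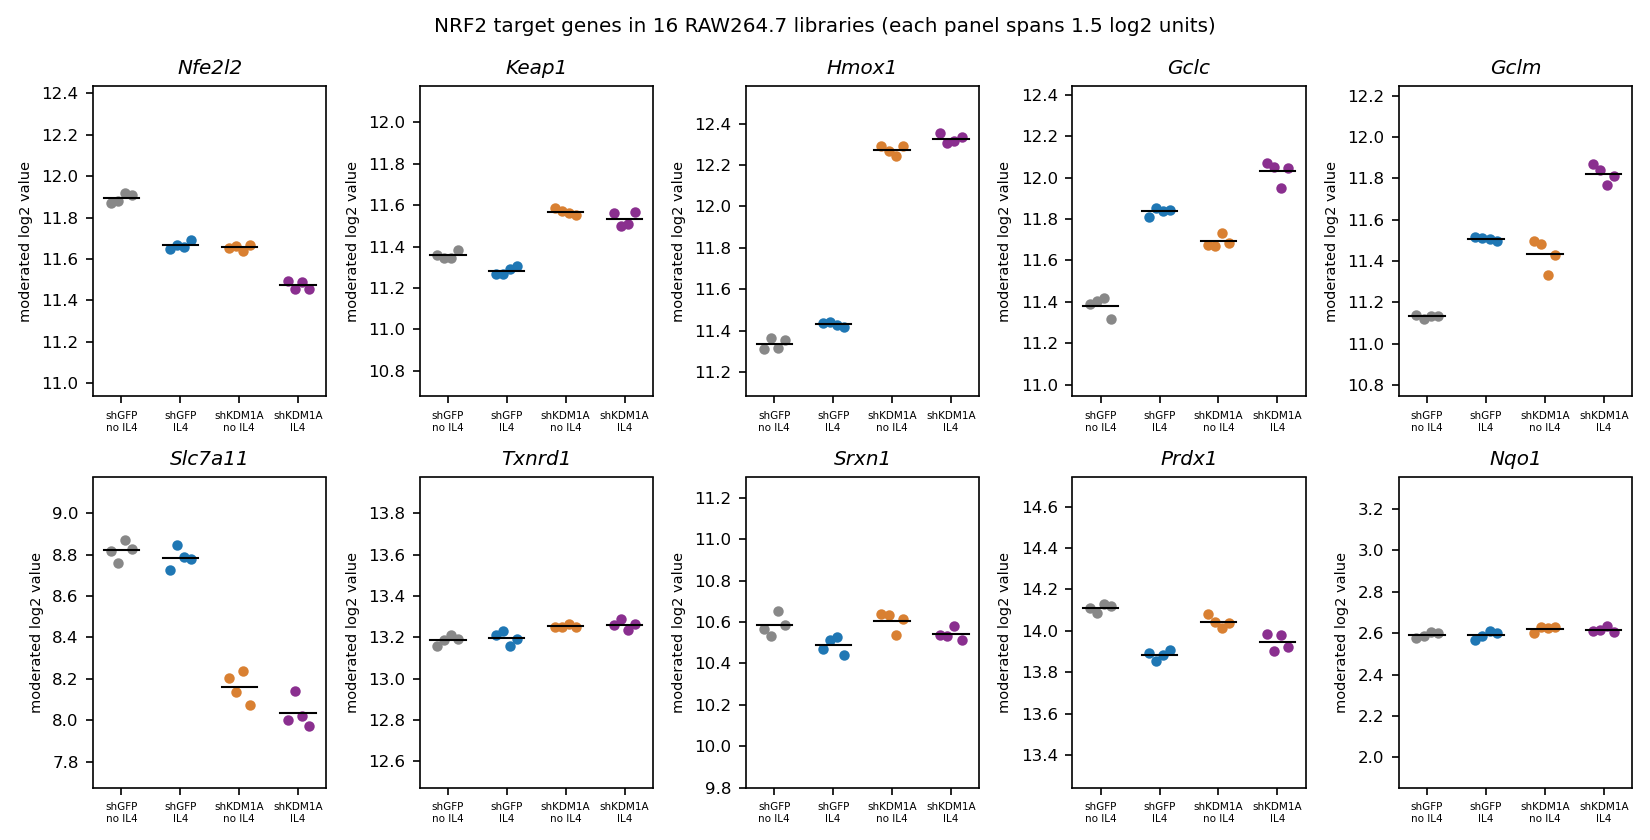
Log2 values (y axis, 1.5 units in every panel) of the 10 genes in the 16 RAW libraries, 1 point per library, grouped by line and IL4 (x axis), with a line at each mean of 4. Hmox1 separates the lines, from 11.31 to 11.44 in shGFP and from 12.25 to 12.35 in shKDM1A libraries. Slc7a11 separates them in the other direction. Gclc and Gclm are higher with IL4 within each line, and higher in shKDM1A than in shGFP cells at the same treatment.

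In the thioredoxin branch, Txnrd1, the cytosolic thioredoxin reductase, lies on chromosome 10 of mm9 from 82321951 to 82360469 on the plus strand. Its log2 values were 13.16, 13.19, 13.21 and 13.19 in shGFP and 13.25, 13.25, 13.26 and 13.25 in shKDM1A cells without IL4. In IL4-treated cells they were 13.21, 13.23, 13.16 and 13.19 in shGFP and 13.26, 13.29, 13.23 and 13.26 in shKDM1A cells. The shKDM1A libraries lay just above the shGFP libraries. The knockdown difference was 0.066 without IL4 (SE 0.019, adjusted p = 0.0128 by limma) and 0.065 with IL4 (adjusted p = 0.0133), but under quantile normalization these were 0.030 (adjusted p = 0.309) and -0.023 (adjusted p = 0.426), the latter in the other direction. Without replicate 3 of IL4-treated shGFP the difference with IL4 was 0.052 (adjusted p = 0.0509). Over the alternatives adjusted p ran from 0.00976 to 0.309 without IL4 and from 0.00396 to 0.426 with IL4. IL4 differences were 0.0083 in shGFP (adjusted p = 0.819, 95% interval -0.033 to 0.049) and 0.0075 in shKDM1A cells (adjusted p = 0.836).

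Srxn1, sulfiredoxin, which repairs overoxidized peroxiredoxins, lies on chromosome 2 of mm9 from 151931260 to 151937112 on the plus strand. In shGFP cells its log2 values were 10.56, 10.53, 10.66 and 10.59 without and 10.47, 10.51, 10.53 and 10.44 with IL4. In shKDM1A cells they were 10.64, 10.63, 10.54 and 10.61 without and 10.54, 10.53, 10.58 and 10.51 with IL4. The shGFP groups touch without overlapping, and the shKDM1A groups overlap. IL4 was accompanied by -0.097 in shGFP cells (SE 0.030, adjusted p = 0.0220 by limma). Without replicate 3 of the untreated or replicate 1 or 4 of the IL4-treated shGFP libraries it was -0.091 to -0.074 with adjusted p of 0.0564 to 0.0771. In shKDM1A cells the difference of -0.065 was not called (adjusted p = 0.120), and without replicate 3 of untreated shKDM1A it was -0.089 (adjusted p = 0.0367). Over 15 alternatives each, adjusted p ran from 0.0132 to 0.0771 in shGFP and from 0.0367 to 0.257 in shKDM1A cells. The knockdown differences, 0.021 without IL4 (95% interval -0.042 to 0.084) and 0.053 with IL4 (-0.0098 to 0.12), were not called (adjusted p = 0.629 and 0.170).

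Prdx1, an abundant thiol peroxidase that thioredoxin recycles, lies on chromosome 4 of mm9 from 116358204 to 116372605 on the plus strand. Log2 values of Prdx1 were 14.11, 14.08, 14.13 and 14.12 in untreated and 13.89, 13.85, 13.88 and 13.91 in IL4-treated shGFP cells. In shKDM1A cells they were 14.08, 14.04, 14.01 and 14.04 without and 13.99, 13.90, 13.98 and 13.92 with IL4. IL4-treated libraries lay below untreated libraries of the same line without overlap, by a wider gap in shGFP cells. The IL4 difference was -0.23 in shGFP (SE 0.023, adjusted p = 1.05e-06 by limma) and -0.095 in shKDM1A cells (adjusted p = 0.00467), or 0.855 and 0.936 times the untreated level. The difference between these responses was 0.13 (SE 0.032, adjusted p = 0.0248 by limma), the only one called among the 10 genes. Of all genes tested, 6.13% were called in either direction and 3.56% with a higher IL4 difference in shKDM1A cells, for Prdx1 a less negative one. Without replicate 4 of untreated or replicate 2 of IL4-treated shGFP, or without replicate 3 of either shKDM1A group, the Prdx1 value was 0.12 to 0.13 with adjusted p of 0.0502 to 0.0537. Under quantile normalization it was 0.075 (adjusted p = 0.256), and over 22 alternatives adjusted p ran from 0.00694 to 0.256.

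The knockdown differences of Prdx1 were -0.067 without IL4 (adjusted p = 0.0275 by limma) and 0.064 with IL4 (adjusted p = 0.0330), but the latter was -0.016 (adjusted p = 0.668), in the other direction, under quantile normalization. Both lie near the threshold. Without IL4 the difference was -0.068 to -0.057 (adjusted p = 0.0516 to 0.0863) when replicate 1, 3 or 4 of shGFP or replicate 2, 3 or 4 of shKDM1A was left out. With IL4 it was 0.052 to 0.067 (adjusted p = 0.0513 to 0.104) when replicate 1, 2 or 3 of shGFP or replicate 1 or 3 of shKDM1A was left out. Adjusted p over 15 alternatives each ran from 0.0111 to 0.0863 without IL4 and from 0.0121 to 0.668 with IL4.

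Nqo1, the quinone reductase most often used as a readout of NRF2, was low among the genes tested. It lies on chromosome 8 of mm9 from 109912125 to 109927105 on the minus strand. All of its log2 values were low, at 2.57, 2.59, 2.60 and 2.60 in shGFP and 2.60, 2.63, 2.62 and 2.63 in shKDM1A cells without IL4. IL4-treated libraries had 2.57, 2.59, 2.61 and 2.60 in shGFP and 2.61, 2.62, 2.64 and 2.60 in shKDM1A cells. The 16 libraries span 2.57 to 2.64, and the group means a range of 0.029. None of the 4 comparisons was called, with adjusted p by limma of 0.196 to 0.995. The 95% interval of the knockdown difference was -0.0065 to 0.064 without IL4. The deposited values are moderated for low expression, so this range and interval hold on that scale only and set no limit on a change in Nqo1 transcripts.

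For the other genes the difference between the IL4 responses of shKDM1A and shGFP cells was not called. That of Gclc was -0.12 (SE 0.039, adjusted p = 0.0845 by limma, 95% interval -0.20 to -0.035), and under quantile normalization -0.15 (adjusted p = 0.0226). Over 22 alternatives its adjusted p ran from 0.0226 to 0.181, and 1 passed. Gclm had 0.013 (95% interval -0.078 to 0.10) and Slc7a11 -0.092 (-0.21 to 0.029). Hmox1 had -0.040 (-0.096 to 0.016), Nfe2l2 0.045 and Keap1 0.042.

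Beyond the 10 genes, 63 other genes of the pathway were listed in 7 groups, of which 61 passed the filter, all but Bach2 and Mgst1. In the knockdown comparison without IL4, 37 of 61 were called, or 60.7% against 38.2% of all genes tested, with 26 higher and 11 lower. The higher ones are 42.6% of the 61 against 19.7% of all genes, while the lower ones, at 18.0%, lie near the 18.4% of all genes. The median log2 difference was 0.029 against -0.0027 over all genes tested. With IL4, 38 were called, or 62.3% against 40.7%, with 31 higher, which is 50.8% against 20.9% of all genes, and 7 lower, which is 11.5% against 19.8%. The median was then 0.097 against -0.0024. Counts and medians of the 61 genes, here and below, were not repeated under another scaling, and their dependence on it was not tested. Under quantile normalization the knockdown difference with IL4 went from 0.065 to -0.023 for Txnrd1 and from 0.064 to -0.016 for Prdx1. The shares over all genes are not matched for level. Fth1, the ferritin heavy chain that stores the iron heme oxygenase releases, had a difference of 1.07 without IL4 (adjusted p = 9.58e-14 by limma) and 1.16 with IL4 (adjusted p = 3.93e-14). Under quantile normalization these were 0.91 and 0.74, and with IL4 Fth1 then lay below Akr1b8, at 0.78, instead of above it. Akr1b8, an aldo-keto reductase, had differences of 0.82 and 0.80, and Esd, which hydrolyses S-formylglutathione, of 0.65 and 0.63. The iron exporter Slc40a1 was higher by 0.71 without and 0.30 with IL4, and Sesn1, a sestrin, was lower, at -0.61 and -0.43. The NADP-dependent isocitrate dehydrogenase Idh1 was higher by 0.32 without and 0.53 with IL4, and glutaredoxin, Glrx, by 0.24 and 0.48. All 4 were called in both comparisons. Processed copies of ferritin genes in the genome can share reads with Fth1, which was not measured here, so its value is less certain.

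By group, counts are to be read against the 38.2% of all genes called without IL4, 19.7% higher and 18.4% lower, and the 40.7% called with IL4, 20.9% higher and 19.8% lower. The groups are small, and some shares lie near these, such as 42.9% of the glutathione genes and 44.4% of the other regulators without IL4. The heme and iron genes had 4 of 7 higher and 1 lower without IL4, and 5 higher and 1 lower with IL4. All 6 genes of NADPH supply were called higher with IL4, with a median of 0.25, and 4 of 6 without IL4, with a median of 0.15. The lowest of the 6 differences with IL4 was 0.099, and whether all 6 calls hold under quantile normalization was not tested. Of 14 glutathione genes tested, 4 were higher and 2 lower without IL4, and 6 higher and 2 lower with IL4. The thioredoxin group had 4 higher and 5 lower of 12 without IL4, and 4 higher and 1 lower with IL4. Among 9 other regulators, 4 were called without IL4, each of them higher, and 3 were higher and 2 lower with IL4. Of 10 detoxification genes 4 were higher in each comparison, with 3 lower without IL4 and 1 with IL4. Of the superoxide and peroxide genes 2 of 3 were higher without IL4 and 3 of 3 with IL4.

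**Figure D4:**
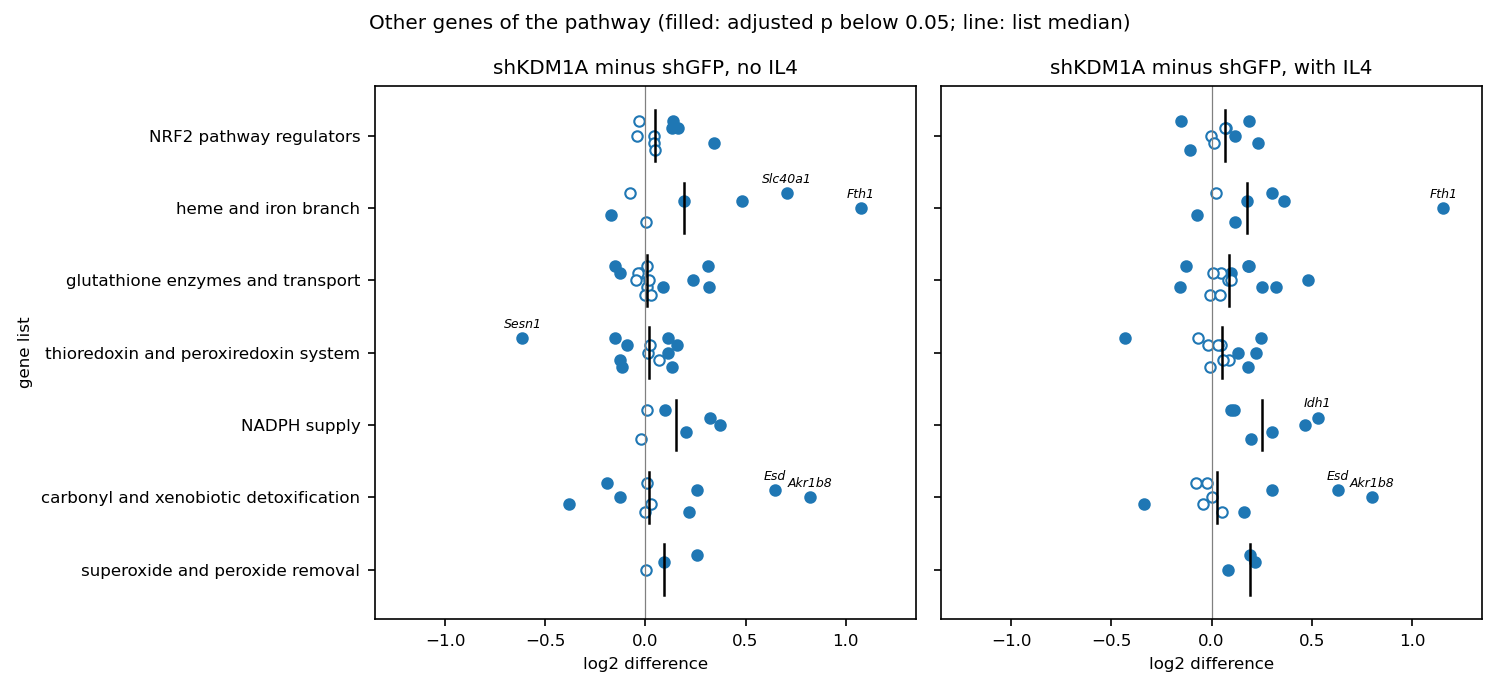
Log2 differences between shKDM1A and shGFP cells (x axis) of the 61 other pathway genes tested, by group (y axis), without IL4 (left) and with IL4 (right). Filled points passed an adjusted p of 0.05, the line marks the median of the group, and called genes beyond 0.5 are named. Fth1 lies farthest to the right in both panels, a place it lost with IL4 under quantile normalization.

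With IL4 in shGFP cells, 35 of the 61 genes were called, or 57.4% against 26.9% of all genes tested. Of these 8 were higher, which at 13.1% of the 61 is also the share of all genes, and 27 were lower, against 13.7% of all genes. The median was -0.066 against -0.00049 over all genes. In shKDM1A cells 31 were called, or 50.8% against 27.1%, with 14 higher and 17 lower, against 13.6% and 13.5% of all genes, and a median of -0.027 against -0.0025. Gpx1, the main glutathione peroxidase, was higher by 0.52 in shGFP and 0.76 in shKDM1A cells (adjusted p = 2.29e-10 and 3.08e-12 by limma). Slc40a1 was lower, at -0.44 and -0.85, and so was Sqstm1, which encodes p62, a protein that sequesters KEAP1, at -0.35 and -0.46. Idh1 was lower, at -0.57 in shGFP and -0.36 in shKDM1A cells, and Txnip, an inhibitor of thioredoxin, at -0.33 and -0.28. Glrx was higher by 0.31 in shGFP and 0.56 in shKDM1A cells, and Taldo1, transaldolase, by 0.15 and 0.37. Each of these was called in both lines.

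The IL4 response of 12 of the 61 genes differed between the lines, that is 19.7% against 6.13% of all genes tested. In shKDM1A cells the difference was higher for 10 of them, or 16.4% of the 61 against 3.56% of all genes, and lower for 2, or 3.28%, which is near the 2.57% of all genes. The lower ones were Slc40a1 at -0.41 (adjusted p = 0.00202 by limma) and Slc3a2, the heavy chain that pairs with Slc7a11, at -0.24 (adjusted p = 0.000139). Slc3a2 was higher with IL4 by 0.31 in shGFP and by 0.069 in shKDM1A cells. Gpx1 had a difference of 0.24 (adjusted p = 9.98e-04) and Taldo1 of 0.22 (adjusted p = 0.00213). Glrx also had 0.24 (adjusted p = 0.0337), but without replicate 1, 2 or 4 of untreated or replicate 1 or 3 of IL4-treated shGFP, or replicate 3 of either shKDM1A group, it was 0.22 to 0.25 with adjusted p of 0.0531 to 0.0704, and with no filter on low values adjusted p was 0.113.

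The genes whose pattern over the 16 libraries was most like that of Hmox1, by Pearson's r as a measure of likeness, were Nptn (0.995), Irf7 (0.994), Igsf3 (0.993), Akr1b8 (0.993) and Capn2 (0.992). Irf7, an interferon-responsive transcription factor, was higher by 2.23 without and 2.30 with IL4 in shKDM1A cells. Those most like Slc7a11 were Plxnc1 (0.983), Plxnd1 (0.983), Syk (0.981), Htr1b (0.980) and Plcb2 (0.979), all lower in shKDM1A cells. The 16 libraries fall into 4 groups, so these values mostly describe the order of the group means.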

How the data were processed

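RNA-seq of RAW cells, 16 libraries in 4 groups assigned by label, was analysed. According to the paper, the authors aligned reads to mm9 with HISAT2 and Bowtie2 and counted them with HOMER. Per the file headers, tags were counted on exons of RefSeq genes on both strands, with 1 entry per gene. The deposited values are log2 values, moderated for low expression, by a transformation not given in the sources used here, with decimal commas. They are not counts, so no count model was fitted and no pseudocount was added. Library totals were 17554721 to 27782568 tags. The deposited columns of the authors' own comparisons (fold changes, p-values) were not used. The table for bone marrow-derived macrophages holds only such columns, so its 10 entries for these genes were not analysed here.

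Group means were fitted with limma 3.58.1 in R 4.3.3 (lmFit, eBayes, 1 model of 16 libraries, 12905 genes reaching 1 in 4 or more libraries) with Benjamini-Hochberg adjustment per comparison and 95% intervals. The script was tested on simulated data. Genes named were all 10 members, Kdm1a, the 5 called genes of the other lists with the largest difference per comparison, and, for the 2 members with the widest range of group means, the 5 genes with the highest Pearson r. Markers are named to describe their lists, after their values were seen. The members, lists and rules were chosen with earlier results of these data known. Alternatives were the filter, a replicate block, 2 scalings, a trended prior, a limit on the difference, the groups in the model and leaving out each library.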

Additional observations from a re-analysis of the deposited data

Results flagged for a closer look

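The IL4 response of Prdx1 was looked at again because it differed between the lines by a test of the difference itself. It was -0.23 in shGFP and -0.095 in shKDM1A cells, a difference of 0.13 (SE 0.032, adjusted p = 0.0248 by limma), with IL4-treated below untreated libraries in each line. This call did not hold in 4 of the 16 fits that each left out 1 library, those without shGFP control replicate 4, shGFP IL4 replicate 2, shKDM1A control replicate 3 or shKDM1A IL4 replicate 3, where the difference was 0.12 to 0.13 with adjusted p of 0.0502 to 0.0537. Under quantile normalization it was 0.075 (adjusted p = 0.256). Prdx1 has the highest level per length of the 10 genes. No library of the 10 genes or of Kdm1a stood apart from its group in 44 groups of 4 tested by Dixon's 95% limit, where chance alone gives about 1 in 20. That limit looks for 1 distant library and cannot see a group split into pairs. In shKDM1A cells with IL4, Prdx1 was at 13.99 and 13.98 in replicates 1 and 3, and at 13.90 and 13.92 in replicates 2 and 4.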

How the results depend on the processing

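Of 50 results for the 10 genes, 30 were called, and 22 of these kept their direction and call under every alternative except the limit on the difference. Of the 20 not called, 18 were called under none. Requiring also an absolute log2 difference over 0.5 left 0 of the 10 genes for IL4 in shGFP and 0 in shKDM1A cells, 2 for the knockdown without and 2 with IL4 (Hmox1 and Slc7a11), and 0 for the difference in IL4 response. Under quantile normalization the knockdown differences with IL4 reversed for Txnrd1, to -0.023, and Prdx1, to -0.016, neither called. The cause was not tested. Leaving out 1 library gave 6 to 7, 4 to 6, 7 to 8, 6 to 8 and 0 to 1 of the 10 genes called in the 5 comparisons, in the same order. Replicate numbers did not pair the libraries: of 24 pairs with the same number, 3 had deviations correlated above 0.1 (median 0.045), and 6 of 16 libraries correlated best with their own number. The fit with a replicate block lost Hmox1 for IL4 in shKDM1A cells (0.054, adjusted p = 0.0525, against 0.0213 to 0.182 over all alternatives) and no other call among the 10 genes. Neither scaling moved the median of all genes by more than 0.0102, but the share of called genes that were higher moved. With median centring it went from 50.1% to 56.5% for IL4 in shKDM1A cells, from 51.3% to 56.7% for the knockdown with IL4 and from 58.0% to 66.2% for the difference in IL4 response. With quantile normalization it went from 51.7% to 43.2% for the knockdown without and from 51.3% to 45.0% with IL4. Among the other pathway genes named, 402 results under alternatives without that limit kept their call, and the other 8, all of Glrx for the difference in IL4 response, did not. Under quantile normalization the knockdown difference of Fth1 with IL4 fell to 0.74, from 1.16. Precision is limited by 4 libraries a group.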
